A study of Mus musculus with 48 samples.

Results

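The cells described here are the endothelial cells, the lining of blood vessels, found among single cells from mouse brains that carried a GL261 glioma. They were chosen by measured values: at least 500 detected genes, at least 2 unique molecular identifiers (UMIs, each one counted RNA molecule) of Cldn5, at least 1 UMI of Pecam1, Flt1, Cdh5 or Kdr, and 0 UMIs of the leukocyte gene Ptprc. The gate held 419 of the 8726 cells with 500 or more genes, out of 9172 cells in all. Since the gate used the levels of these 6 genes, their values describe the choice and are not results.

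The study asked what P-selectin made by glioma cells does to the tumor and the cells around it. Cells of the mouse glioma line GL261, with a short hairpin RNA that was either a negative control (shNC) or directed at the P-selectin gene Selp (shSELP), were placed in the striatum of C57BL/6 males aged 6 weeks. The hairpins were in the implanted cells, so the vessels of both groups belong to the host and keep their own Selp gene. Each group had 2 droplet libraries, labelled day 16 after implantation (the methods give day 17), from brains that were pooled, and each was an equal mixture of CD11b+ cells, other CD45+ cells and what remained. It is not recorded if different animals went into the 2 libraries of each group, so their spread may hold no more than the making of the libraries.

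Endothelial cells of the brain form the blood-brain barrier: tight junctions seal the gaps between them, few vesicles cross them, and carriers and efflux pumps decide what enters the tissue. Wnt signals and contact with pericytes and astrocytes keep up these properties. Along the vessel tree, arterial, capillary and venous cells express different genes, with veins as the main site where leukocytes attach through selectins and adhesion molecules. Vessels inside gliomas often lose barrier genes, sprout from so-called tip cells and gain Plvap, which builds the diaphragms of fenestrae and caveolae.

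The libraries contributed very unequal numbers of cells. The gate held 18 and 26 cells in shNC libraries 1 and 2, and 312 and 63 cells in shSELP libraries 1 and 2. Library shSELP 1 thus supplied 74.5% of the cells, against 4.30%, 6.21% and 15.0% from shNC 1, shNC 2 and shSELP 2. A gated cell held a median of 6369 and 3872 UMIs in shNC 1 and 2, and of 3389 and 5565 UMIs in shSELP 1 and 2, with 2425.5 and 1790 against 1615 and 2288 genes detected. Summed over the gated cells, the libraries held 128930 and 163191 UMIs (shNC) and 1494174 and 424553 UMIs (shSELP). Levels are given as CPM, the UMIs of a gene in the gated cells of a library per 1000000 UMIs of those cells. A count of 0 allows up to 3 UMIs, which is 23.3 and 18.4 CPM in shNC 1 and 2, and 2.01 and 7.07 CPM in shSELP 1 and 2, counting error only. A low level is thus seen far less well in shNC than in shSELP.

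A few cells weigh heavily in the shNC sums. The deepest gated cell held 16401 UMIs, 12.7% of all, in shNC 1 and 23935 UMIs, 14.7%, in shNC 2, against 2.05% and 4.23% in the shSELP libraries. Library shSELP 1 stood apart in another way, through RNA of cells other than endothelium. Ttr, the main product of the choroid plexus, had 1 and 13 UMIs in shNC, and 19008 and 50 UMIs in shSELP. In shSELP 1 all 312 gated cells held a Ttr UMI, with a median of 8, and a single cell held 10411 UMIs, 54.8% of them. Among Ptprc-positive cells, which should lack Ttr, 99.9% held a UMI in shSELP 1 against 16.8 to 52.7% in the other libraries. Hemoglobin genes added 9642 UMIs in shSELP 1, of which 9626 lay in 8 cells with at least 100 UMIs of Ttr or hemoglobin. Those 8 cells were left out in an alternative that was chosen after seeing the data, and so was the deepest cell of each library. Cell barcodes found in more than 1 library numbered 5, none of them of a gated cell.

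The label was checked with 2 markers that the gate did not use. Ptprb, a receptor phosphatase of endothelium, was detected in 83.3 and 80.8% in shNC and 86.2 and 88.9% in shSELP, against 0.186 to 1.67% of Ptprc-positive cells. Slco1a4, an organic anion carrier of brain vessels, was detected in 72.2 and 88.5% in shNC and 91.7 and 95.2% in shSELP, against 0.186 to 2.76% of Ptprc-positive cells. Those comparison cells were deeper, with medians of 9579 and 8438 UMIs in shNC and 7768.5 and 12142 UMIs in shSELP. The cells are called endothelial in what follows. The levels of the gate genes follow from the choice and do not check it. Flt1, a VEGF receptor, was detected in 100 and 100% in shNC and 98.7 and 98.4% in shSELP. Cldn5, the main claudin of the barrier, had 2707 and 3505 CPM in shNC and 3973 and 4558 CPM in shSELP, and Pecam1, an adhesion molecule between endothelial cells, had 714 and 576 CPM in shNC and 666 and 676 CPM in shSELP. Cdh5, the cadherin of endothelial junctions, had 752 and 404 CPM in shNC and 509 and 509 CPM in shSELP, and Kdr, the main VEGF receptor, had 295 and 502 CPM in shNC and 426 and 471 CPM in shSELP. Whether a cell came from a vessel inside the tumor or from the brain around it is not recorded. Only 5 of the 419 cells had 2 or more UMIs of Plvap, whereas 351 had 2 or more UMIs of Slco1a4. Of those 5 cells 4 were among the 18 of shNC 1 and 0 among the 312 of shSELP 1.

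At the edge of the gate, 17 cells had exactly 2 UMIs of Cldn5 and were inside, and 17 cells met every other condition with 1 UMI and were outside. The median of Cldn5 was 14 and 16.5 UMIs per gated cell in shNC, and 13 and 26 in shSELP. A further 21 cells met the vessel conditions and were left out for Ptprc, 7 of them for a single UMI. The doublet caller Scrublet marked 4 gated cells, all in shSELP 1, and no gated cell had more than 4.99% mitochondrial UMIs.

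Endothelial cells made up 0.825% (exact 95% interval 0.489 to 1.3%) and 1.19% (0.781 to 1.74%) of cells in the shNC libraries. In the shSELP libraries they made up 14.2% (12.8 to 15.8%) and 2.90% (2.23 to 3.69%). These intervals cover the counting of cells only, and not the spread between libraries. Both shSELP libraries lay above both shNC libraries, and shSELP 1 lay far above the rest. The mean share was 1.01% ± 0.261 (SD, n = 2) in shNC and 8.57% ± 8.02 (SD, n = 2) in shSELP, a ratio of 8.50. An exact two-sided permutation test over the libraries gave p = 0.333, the smallest that the 6 possible splits allow, so this test cannot reach a p of 0.05 here. Without shSELP 1 the ratio was 2.87, and without shSELP 2 it was 14.1. These shares describe the mixture of sorted fractions and not the tumor. Mural cells, which wrap the vessels and were gated on their own markers, numbered 4 and 10 in shNC and 82 and 27 in shSELP, so shSELP 1 was the highest there too. Among the 5724 cells of the separate CD11b+ experiment, labelled day 21, the same gate found 2 of 2862 cells in the shNC library and 0 of 2862 in the shSELP library.

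**Figure D1:**
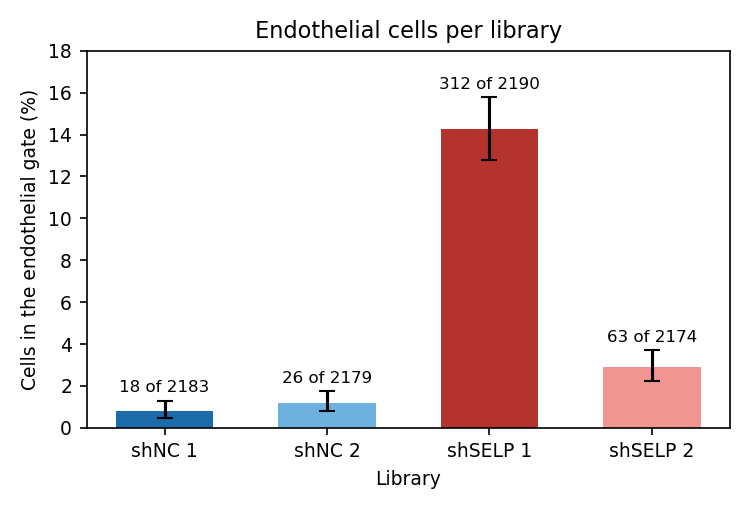
Percent of cells with 500 or more genes that met the endothelial gate, 1 bar per library with its exact 95% interval. The intervals cover the counting of cells only, and not the spread between libraries. The shNC libraries sit at 0.825 and 1.19% and the shSELP libraries at 14.2 and 2.90%.

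RNA of other cell types was read from 15 marker lists in the gated cells. The gene said to lead a list has its highest mean CPM over the 4 libraries, and need not lead in each. Mural genes were the strongest apart from choroid plexus and erythroid genes, with a sum of 1885 and 1416 CPM in shNC and 1026 and 676 CPM in shSELP. All 8 tested mural genes were lower in shSELP (median log2 fold change -1.06), and none passed the test. Without shNC 1, 4 of them passed, and without shNC 2, 2 did, beside 4.67% and 7.03% of all genes. The most abundant, Rgs5, had 527 and 686 CPM in shNC and 499 and 325 CPM in shSELP. A single cell held 229 of the 231 mural UMIs of shNC 2 and another held 162 of 243 in shNC 1. The choroid plexus list summed to 7.76 and 79.7 CPM in shNC and 12778 and 118 CPM in shSELP, nearly all of it Ttr. Erythroid genes summed to 0 and 0 CPM in shNC and 6467 and 7.07 CPM in shSELP, led by Hbb-bs at 3937 CPM in shSELP 1 and 0 UMIs in the other libraries. The part of these genes in the results was not tested beyond the fits without such cells that are given with the counts.

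Leukocyte genes were low, as the condition on Ptprc would have them. The microglia and macrophage list summed to 473 and 153 CPM in shNC and 379 and 276 CPM in shSELP, led by C1qb at 18.4 to 74.3 CPM, and the groups overlapped. T and NK cell genes summed to 31.0 and 12.3 CPM in shNC and 4.68 and 4.71 CPM in shSELP, led by Cd3g, with Cd3d and Trac at 0 in all libraries. B and plasma cell genes summed to 38.8 and 24.5 CPM in shNC and 3.35 and 4.71 CPM in shSELP, led by Igkc, with Ms4a1 and Igha at 0. Neutrophil genes summed to 0 and 12.3 CPM in shNC and 6.69 and 11.8 CPM in shSELP, led by S100a9, with Csf3r at 0. Platelet genes, led by Itga2b, were at 0 in both shNC libraries, under floors of 23.3 and 18.4 CPM, and at 14.7 and 11.8 CPM in shSELP.

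In each of the oligodendrocyte, astrocyte and neuron lists, a single gene held most of the RNA that was found. Oligodendrocyte genes summed to 388 and 294 CPM in shNC and 575 and 518 CPM in shSELP, almost all of it Mal, a membrane protein of myelin and of some epithelia, while Mbp stayed under 30 CPM. Astrocyte genes summed to 202 and 104 CPM in shNC and 156 and 127 CPM in shSELP, almost all of it the connexin gene Gja1, with Gfap and Slc1a2 at 0 in all 4 libraries. Neuron genes summed to 77.6 and 12.3 CPM in shNC and 67.6 and 0 CPM in shSELP, led by Meg3. Its UMIs came from 2 and 1 cells in shNC and 4 and 0 cells in shSELP, and mural cells held it at 694 CPM. Pituitary genes summed to 54.3 and 55.2 CPM in shNC and 40.8 and 51.8 CPM in shSELP, led by Pomc, although it had only 1 of the 7 UMIs in shNC 1, with 7 of the list at 0. Genes of GL261 cells summed to 171 and 441 CPM in shNC and 388 and 323 CPM in shSELP, most of it Nes, which dividing endothelial cells also express. Fibroblast genes summed to 23.3 and 6.13 CPM in shNC and 18.1 and 16.5 CPM in shSELP, led by Col3a1, with Lum at 0. Lymphatic genes summed to 139.6 and 55.2 CPM in shNC and 61.6 and 49.5 CPM in shSELP, most of it Flt4, a VEGF-C receptor that blood vessels carry as well, while Lyve1 had 1 UMI in all.

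Compared with the other Ptprc-negative cells of the same table, the gated cells had some genes at far higher levels. These ratios follow from the choice of the cells and carry no test. Among genes of at least 200 CPM, the highest ratio was that of the uncharacterised 8430408G22Rik, at 536 CPM in the pooled gated cells and 712 times the level in the others. Cldn5 followed with a ratio of 621. Spock2, a proteoglycan, stood at 494 times, Slco1a4 at 363 times, Tmem252, a membrane protein, at 297 times, and Prom1, the stem cell antigen CD133, at 295 times. The transcription factors Foxq1, Sox17 and Lef1 stood at 290, 175 and 168 times. The efflux pump Abcb1a stood at 282 times, Vwf, the clotting factor stored by endothelium, at 220 times, and Tek, the angiopoietin receptor, at 135 times. Slco1c1, the thyroxine carrier, stood at 131 times and Slc40a1, the iron exporter ferroportin, at 117 times. Sema3c, Adgrl4, Wfdc1, Ptprb, Paqr5 and Cyyr1 completed the 20 at 113 to 92.3 times. Of these 20 genes, 8430408G22Rik differed most between libraries, with 46.5 and 613 CPM in shNC and 566 and 551 CPM in shSELP, so that shNC 1 alone was low.

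The question between the groups is how the host vessels differ when the glioma cells carry the hairpin against Selp. For it, the UMIs of the gated cells were summed per library and compared with edgeR's quasi-likelihood test, with Benjamini-Hochberg adjustment over all genes tested. Of 4823 genes, 50 passed an adjusted p of 0.05 (1.04%), 6 higher (0.124%) and 44 lower (0.912%) in shSELP, and 798 had an unadjusted p under 0.05. All fold changes are shSELP over shNC, and the p-values measure only the spread between libraries. Over all genes tested 2446 were higher, with a median log2 fold change of 0.01. The libraries of the groups did not overlap for all 50 called genes, and for 49.6% of all genes tested. DESeq2 called 54, of which 45 were the same genes.

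The count depended on single libraries and cells. It was 311 without shNC 1, 460 without shNC 2, 24 without shSELP 1 and 99 without shSELP 2. These were 4.67%, 7.03%, 0.635% and 2.64% of the 6654, 6540, 3777 and 3756 genes tested there, beside 1.04% with all libraries. Any count of list genes that pass without a library is to be read against these shares. These fits shared 47, 47, 23 and 43 genes with the 50. With the deepest cell of each library left out, 18 genes were called, all of them lower and all among the 50. With the 8 cells of high Ttr or hemoglobin left out, 43 were called, 42 of them among the 50. In every alternative each of the 50 genes that was tested kept its direction. Of 90 named genes that were not called, 55 passed in at least 1 fit without a library, 45 of them without shNC 2, 29 without shNC 1, 6 without shSELP 2 and 0 without shSELP 1. Where a range stands in brackets after a list median, it spans the fits with 1 library left out.

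**Figure D2:**
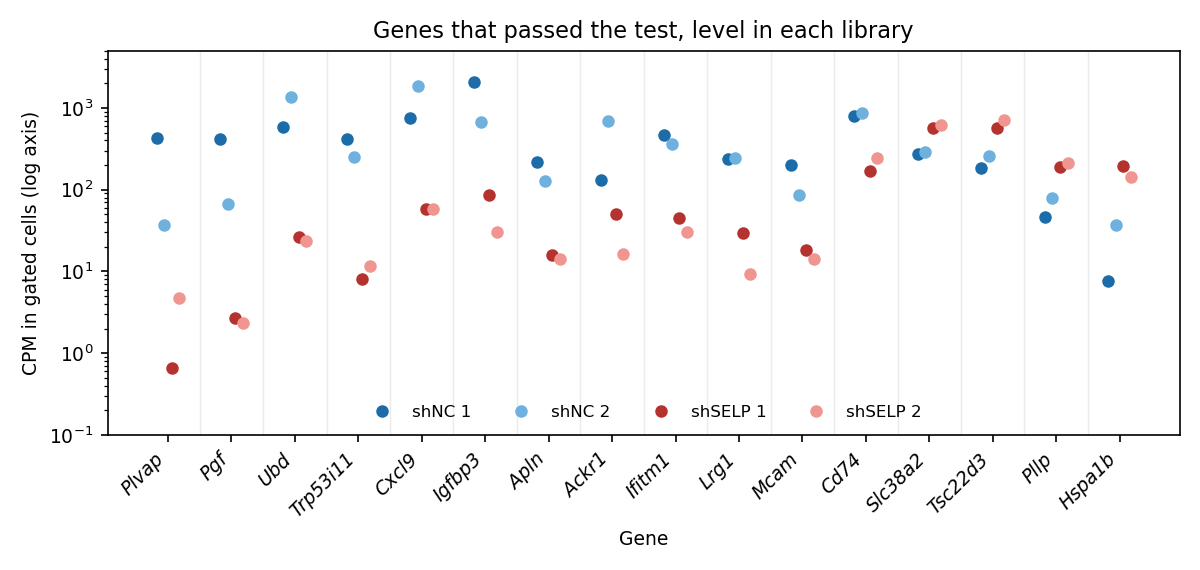
Levels of genes that passed edgeR's test in the gated cells of each library, in CPM on a log axis, 1 point per library. Plvap, at 427 and 36.8 CPM in shNC, falls to 0.669 and 4.71 CPM in shSELP.

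Tight junction genes showed no call. Tjp1, a scaffold under the junction, had 341 and 294 CPM in shNC and 436 and 492 CPM in shSELP. Lsr, a protein of the corners where 3 cells meet, had 109 and 214 CPM in shNC and 314 and 344 CPM in shSELP. Esam, an adhesion molecule of endothelial junctions, had 915 and 1011 CPM in shNC and 857 and 956 CPM in shSELP. For Tjp1 and Lsr both shSELP libraries were above both shNC libraries, while for Esam the groups overlapped. Of 7 tested genes of the list outside the gate, 5 were higher, with a median log2 fold change of 0.25, beside 0.01 for all genes tested. Without shNC 1, 2 of the 7 were higher and the median was -0.02. Without shNC 2, Lsr passed (adjusted p = 0.000236) and the median was 0.46.

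Carriers and pumps of the barrier were mostly higher in shSELP without a call. Slc2a1, the glucose carrier, had 2234 and 1814 CPM in shNC and 2399 and 2501 CPM in shSELP. Abcb1a, the efflux pump P-glycoprotein, had 721 and 901 CPM in shNC and 1237 and 1352 CPM in shSELP. Itm2a, a membrane protein typical of brain vessels, had 1644 and 2592 CPM in shNC and 3629 and 4249 CPM in shSELP. In each of these both shSELP libraries stood above both shNC libraries, with log2 fold changes of 0.26, 0.65 and 0.87 (edgeR adjusted p = 0.489, 0.167 and 0.122). Of the 18 genes of the list 17 were higher, all but Slco2b1, with a median of 0.67 (0.47 to 1.05). Their sum was 8741 and 11784 CPM in shNC and 15192 and 17183 CPM in shSELP, so the level was lowest in shNC 1 and highest in shSELP 2. Calls appeared once a shNC library was left out, 12 without shNC 2 and 3 without shNC 1, in fits that called 7.03% and 4.67% of all genes. Abcb1a then had an adjusted p of 0.000835 without shNC 2, and Itm2a of 2.53e-09 without shNC 2 and 0.000490 without shNC 1.

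Plvap moved the other way. The gene, on chr8:71497765-71511752 of mm10 on the minus strand, encodes the protein of fenestral and caveolar diaphragms. It had 55 and 6 UMIs in shNC and 1 and 2 UMIs in shSELP, or 427 and 36.8 CPM against 0.669 and 4.71 CPM. Both shSELP libraries were far below both shNC libraries, and shNC 1 was well above shNC 2. The UMIs came from 4 cells of shNC 1, 1 of shNC 2, 1 of shSELP 1 and 2 of shSELP 2, and 1 cell held 32 of the 55 UMIs of shNC 1. It fell in edgeR's fit (log2 fold change -6.90, SE 1.17, adjusted p = 0.0273). With only 3 UMIs in shSELP, the pooled ratio of shNC over shSELP was 134, with an exact counting interval of 43.6 to 666. Such an interval takes each UMI as independent. It covers counting error only, and not the spread between cells or libraries. In Ptprc-positive cells Plvap was detected in 0.363 to 0.547% of cells. When the gate took cells with 1 UMI of Cldn5 as well, its log2 fold change was -6.77 (adjusted p = 0.0541). It was too low to test without shNC 1, which held 55 of the 61 shNC UMIs, and without the deepest cells, 1 of which held all 6 UMIs of shNC 2.

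The other genes of fenestrae and caveolae went both ways. Cav1, which builds caveolae, had 171 and 269.6 CPM in shNC and 284 and 236 CPM in shSELP, and Cav2, its partner, had 233 and 135 CPM in shNC and 264 and 221 CPM in shSELP. Cavin1, the coat protein of caveolae, had 209 and 263 CPM in shNC and 288 and 289.7 CPM in shSELP, and Cavin2, which bends their membrane, had 473 and 662 CPM in shNC and 886 and 843 CPM in shSELP. For Cav1 and Cav2 the groups overlapped, and for both cavins shSELP was slightly higher. The lipid phosphatases Plpp1 and Plpp3 and the membrane remodeller Ehd4 were lower without a call, so that 4 of the 8 tested genes were higher and 4 lower, with a median of -0.42 (-0.65 to -0.04). Plvap was the gene of this list that passed. Without shNC 2, 5 of the 8 passed, 4 of them lower and Cavin2 higher (adjusted p = 0.00203), where 7.03% of all genes did.

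Genes of the capillary segment were higher in shSELP. Car4, a carbonic anhydrase on the capillary surface, had 101 and 411 CPM in shNC and 696 and 699.6 CPM in shSELP. Spock2 had 659 and 1256 CPM in shNC and 1633 and 1967 CPM in shSELP. Rgcc, a cell cycle regulator that marks capillaries, had 349 and 643 CPM in shNC and 806 and 961 CPM in shSELP. Library shNC 1 was the lowest for each, and shNC 2 lay between it and the shSELP libraries. Cxcl12, a chemokine made by capillaries and arteries, had 465 and 2028 CPM in shNC and 1819 and 1686 CPM in shSELP, so shNC 1 alone was low and the groups overlapped. All 8 genes of the list were higher, with a median of 0.82 (0.48 to 1.57) and no call, and their sum was 2203 and 5331 CPM in shNC and 6249 and 6819 CPM in shSELP. For Car4 the log2 fold change was 1.38 (edgeR adjusted p = 0.174), which passed without shNC 1 (p = 0.0106), without shNC 2 (p = 2.17e-10) and without shSELP 2 (p = 0.00801). With shNC 2 left out 6 of the 8 passed, and with shNC 1 left out 6 of the 8 were higher and 3 passed, beside 7.03% and 4.67% of all genes.

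Arterial genes showed no common direction. Mgp, an inhibitor of calcification, had 1218 and 251 CPM in shNC and 596 and 179 CPM in shSELP, high and low within each group. Hey1, a Notch target of arteries, had 15.5 and 85.8 CPM in shNC and 124 and 104 CPM in shSELP, and Sema3g, a guidance molecule of arteries, had 109 and 42.9 CPM in shNC and 95.7 and 68.3 CPM in shSELP. Gkn3, which marks brain arteries, had 0 and 1 UMIs in shNC and 369 and 19 UMIs in shSELP, from 0 and 1 cells in shNC and 37 and 4 cells in shSELP. With 1 UMI in shNC, the pooled ratio of shNC over shSELP was 0.0169, with an exact counting interval of 0.000428 to 0.0949, for counting error only. Its edgeR test did not pass (log2 fold change 5.50, adjusted p = 0.151), and it passed without shNC 1, without shNC 2 and without shSELP 2 (p = 5.54e-11, 0.00197 and 5.72e-15). Of the 7 tested genes, 5 were higher, with Mgp and Gja4 lower, and the median was 0.25. It ranged from -0.30 to 0.93 over the fits without a library. Without shNC 2 the log2 fold change was -1.57 for Mgp and 2.92 for Hey1. Without shNC 1 it turned to 0.68 for Mgp and was 0.44 for Hey1.

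Venous genes were mostly lower, with 2 calls. Ackr1 (chr1:173331886-173333750, minus strand), the chemokine receptor of venules that carries chemokines without signalling, had 132 and 699 CPM in shNC and 50.9 and 16.5 CPM in shSELP. A single cell held 103 of the 114 UMIs of shNC 2, and the UMIs of shNC 1 came from 3 cells. Both shSELP libraries were lower than both shNC libraries, and the gene fell in edgeR's fit (log2 fold change -3.43, SE 0.63, adjusted p = 0.0428). Its log2 fold change was -1.65 without shNC 2 and -4.65 without shSELP 1. With the deepest cell of each library left out its log2 fold change was -1.44 (adjusted p = 0.340). The call was also lost with Cldn5 at 1 UMI (-3.34, adjusted p = 0.0755) and with Scrublet calls left out (-3.41, adjusted p = 0.0503), 3 of 15 alternatives in all. Lrg1, a secreted glycoprotein of inflamed venules, had 240.4 and 245 CPM in shNC and 29.4 and 9.42 CPM in shSELP. Both shNC libraries were at least 8 times as high as either shSELP library, and the fall (log2 fold change -3.33, SE 0.37, adjusted p = 0.00242) passed under all 14 alternatives in which it was tested. In shNC 2, however, 38 of its 40 UMIs lay in 1 cell, the deepest of that library, which also held the 103 UMIs of Ackr1. Without the deepest cells Lrg1 was too low to test.

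The remaining venous genes did not pass. Vwf had 628 and 184 CPM in shNC and 218 and 191 CPM in shSELP, with shNC 1 alone high. Its log2 fold change of -0.94 was -1.58 without shNC 2 and turned to 0.17 without shNC 1. Slc38a5, a glutamine carrier, had 93.1 and 221 CPM in shNC and 163 and 245 CPM in shSELP and was the 1 gene of the list that was higher. Of the 9 tested genes 8 were lower, with a median of -0.82, and their sum was 1823 and 1642 CPM in shNC and 809 and 714 CPM in shSELP. Without shNC 1, 4 of the 9 were higher, and the median ranged from -0.96 to -0.17 over the fits without a library.

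Selp itself was rare in the vessels. It had 8 and 12 UMIs in shNC and 0 and 4 UMIs in shSELP, or 62 and 73.5 CPM in shNC and 0 and 9.42 CPM in shSELP, from 2 and 2 cells in shNC and 0 and 1 cells in shSELP. Both shSELP libraries were below both shNC libraries, with shSELP 1 under its floor of 2.01 CPM. The adjusted p of edgeR was 0.0534 for a log2 fold change of -4.84, not past the threshold. Over the pooled UMIs, 20 in shNC and 4 in shSELP, the ratio of shNC over shSELP was 32.8. Its exact counting interval was 11 to 132, for counting error only and not for the spread between these few cells or the libraries. The ratio of the mean CPM of the groups was 14.4. In DESeq2 Selp passed, with an adjusted p of 0.0382. Its edgeR log2 fold change was -4.89 without shNC 1, -2.78 without shSELP 1 and -8.32 without shSELP 2. All 5 cells with Selp also held a UMI of Lrg1 or Ackr1, and 4 of them held 0 UMIs of Slco1a4. Ptprc-positive cells held Selp at 0.355 to 1.62 CPM. Sele, E-selectin of activated endothelium, had 256 and 49.0 CPM in shNC and 16.7 and 18.8 CPM in shSELP, with shNC 1 well above the rest. The edgeR adjusted p of Sele was 0.0562 (log2 fold change -3.04). Its log2 fold change was -1.49 without shNC 1, -3.84 without shNC 2, -2.90 without shSELP 1 and -3.07 without shSELP 2.

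Partners of the selectins showed no call. Selplg, which encodes the ligand PSGL-1 of leukocytes, had 2 and 0 UMIs in shNC and 15 and 2 UMIs in shSELP and was too low to test, against 220.4 and 244 CPM in shNC and 340.3 and 253 CPM in shSELP in Ptprc-positive cells. Podxl, a sialomucin of endothelium that can carry selectin ligands, had 302 and 435 CPM in shNC and 393 and 409.8 CPM in shSELP, with the groups overlapping, and was detected in 83.3 and 76.9% in shNC and 65.4 and 74.6% in shSELP. Cd24a, another selectin ligand, had 15.5 and 12.3 CPM in shNC and 32.1 and 16.5 CPM in shSELP, and the enzyme genes Fut7 and Chst4 were at 0 in all 4 libraries. Of the 3 tested genes of this list, Selp and Sele were lower and Podxl higher, and the median was -3.04 (-3.07 to -1.49).

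Among the adhesion molecules, Mcam fell. Mcam, CD146 of sprouting and inflamed endothelium, had 202 and 85.8 CPM in shNC and 18.1 and 14.1 CPM in shSELP. Both shSELP libraries were several times below both shNC libraries (edgeR log2 fold change -3.01, SE 0.45, adjusted p = 0.0151). Once cells with 2 or more UMIs of the mural genes Rgs5 or Vtn were left out, the log2 fold change was -2.73 and the adjusted p 0.0527. Icam1, which binds leukocyte integrins, had 1171 and 895 CPM in shNC and 1047 and 1140.0 CPM in shSELP, and Icam2 had 256 and 227 CPM in shNC and 270.4 and 285 CPM in shSELP. Cd34, a sialomucin, had 721 and 821 CPM in shNC and 615 and 685 CPM in shSELP. For Icam1 the groups overlapped, and for Icam2 and Cd34 they were set apart by little. Of 9 tested genes of the list outside the gate 4 were higher (Icam1, Icam2, Jam2 and F11r), with a median of -0.27 (-0.34 to -0.10). Madcam1 was at 0 in all libraries.

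Genes of tip cells and new vessels held 4 of the calls, all of them lower. Trp53i11 (chr2:93187548-93201759, plus strand), a p53-induced gene known from tip cells, had 419 and 251 CPM in shNC and 8.03 and 11.8 CPM in shSELP. Both shNC libraries were more than 20 times as high as either shSELP library (edgeR log2 fold change -5.17, SE 0.37, adjusted p = 0.000533), and it passed in all 16 alternatives. In shNC 2, however, a single cell held 35 of its 41 UMIs. Apln (chrX:48025146-48034853, minus strand), the tip cell peptide apelin, had 217 and 129 CPM in shNC and 16.1 and 14.1 CPM in shSELP, from 2 and 2 cells in shNC and 2 and 1 cells in shSELP. It fell with log2 fold change -3.43, SE 0.37, adjusted p = 0.00241, and 1 cell held 20 of the 21 UMIs of shNC 2. Pgf (chr12:85166635-85177790, minus strand), a VEGF family ligand, had 411 and 67.4 CPM in shNC and 2.68 and 2.36 CPM in shSELP, or 53 and 11 UMIs in shNC and 4 and 1 UMIs in shSELP. Here shNC 1 was the highest and both shSELP libraries were near their floors (log2 fold change -6.32, SE 0.89, adjusted p = 0.0117). The log2 fold change of Pgf was -4.60 without shNC 1 and -7.17 without shNC 2. A single cell held 35 of the 53 UMIs of shNC 1, and another 10 of the 11 of shNC 2. For Trp53i11, Apln and Pgf it was the same cell of shNC 2, with 13146 UMIs, so these 3 calls are not separate results in that library. No alternative left out that cell alone. Without shNC 2 the log2 fold changes were -5.49, -3.75 and -7.17, with shNC 1 as the lone shNC library. There single cells held 15 of 54 UMIs of Trp53i11, 15 of 28 of Apln and 35 of 53 of Pgf. That fit thus cannot show if the calls rest on single cells.

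The collagens of the sprouting program were lower without a call. Col4a1 had 1179 and 705 CPM in shNC and 446 and 511 CPM in shSELP, and Col4a2 had 776 and 417 CPM in shNC and 244 and 334 CPM in shSELP. In both, shNC 1 was the highest library and the shSELP libraries the lowest. Vim, the intermediate filament gene, had 3048 and 2157 CPM in shNC and 1374 and 1364 CPM in shSELP, with an adjusted p of 0.0605 that passed without shNC 1 (p = 0.00154) and without shNC 2 (p = 1.17e-07). Pdgfb, by which tip cells attract pericytes, had 217 and 269.6 CPM in shNC and 215 and 219 CPM in shSELP, with the groups overlapping. Of 15 tested genes 14 were lower, all but Unc5b at 0.04, and the median was -1.06. It ranged from -1.69 to -0.73 over the fits without a library. The sum of the list was 7074 and 4620.4 CPM in shNC and 2604 and 2817 CPM in shSELP, so the shNC libraries were above the shSELP libraries. Col4a1 and Col4a2 passed without shNC 2 (p = 1.69e-06 and 3.66e-06).

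Genes of VEGF and angiopoietin signals went both ways. Tek had 139.6 and 190.0 CPM in shNC and 299.8 and 332 CPM in shSELP, and Nrp1, a co-receptor of VEGF, had 132 and 239 CPM in shNC and 251 and 249.7 CPM in shSELP. For both, shSELP was higher. Of the 7 tested genes outside the gate, Tek, Nrp1 and Tie1 were higher and Pgf, Angpt2, Nrp2 and Flt4 lower, with a median of -0.89 (-1.47 to 0.06) and Pgf as the single call. The median was 0.06 without shNC 1. Tek and Nrp1 passed without shNC 2 (p = 0.00504 and 0.0430).

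**Figure D3:**
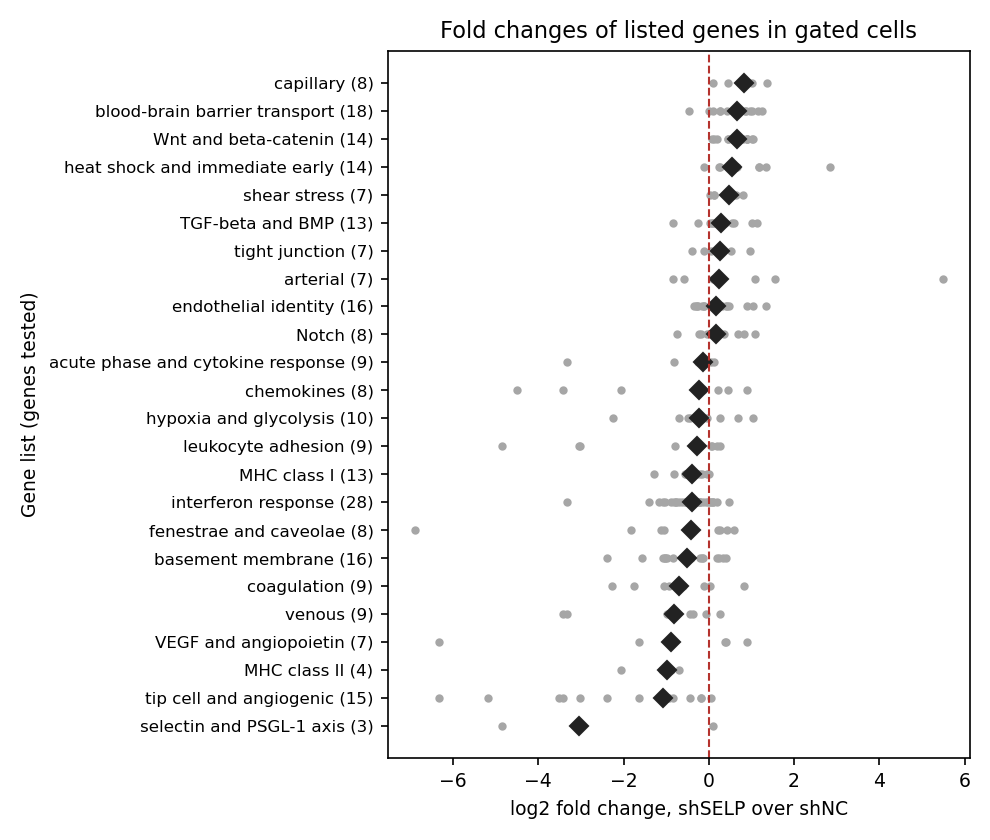
Log2 fold changes, shSELP over shNC, of the tested genes of the process lists in the gated cells, 1 grey point per gene. Gate genes and the cell cycle list are not shown. Diamonds mark the list medians, 0.67 for barrier transport and -1.06 for the tip cell list. The dashed line marks the median of all genes tested, 0.01.

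Wnt signalling keeps up the barrier, and its genes were higher in shSELP without a call. Foxq1, a transcription factor of brain endothelium, had 256 and 263 CPM in shNC and 444 and 535 CPM in shSELP. Sox17, which acts with Wnt signals, had 147 and 184 CPM in shNC and 337 and 363 CPM in shSELP. Lef1, the nuclear partner of beta-catenin, had 202 and 282 CPM in shNC and 406 and 379 CPM in shSELP, and Ctnnb1, beta-catenin itself, had 442 and 490.2 CPM in shNC and 669 and 631 CPM in shSELP. In each of the 4 genes both shSELP libraries were above both shNC libraries. All 14 tested genes of the list were higher, with a median of 0.67 (0.55 to 0.92), and the sum was 1644 and 1949 CPM in shNC and 2899.9 and 2989 CPM in shSELP. The nearest to the threshold was Sox17, with a log2 fold change of 1.04 and an edgeR adjusted p of 0.0670. It passed without shNC 1 (p = 0.0140) and without shNC 2 (p = 0.00203), as Foxq1 did (p = 0.00654 and 0.00722).

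Notch genes, which set arterial fate and hold back tip cells, went both ways. Hes1, a target of the pathway, had 240.4 and 165 CPM in shNC and 309 and 344 CPM in shSELP, and the receptor Notch1 had 240.4 and 196 CPM in shNC and 230.2 and 191 CPM in shSELP. The ligands Jag2 and Dll4 had 101 and 104 CPM in shNC and 139.9 and 122 CPM in shSELP, and 124 and 85.8 CPM in shNC and 100.4 and 75.4 CPM in shSELP. Hes1 was higher in shSELP, and passed without shNC 1 (adjusted p = 0.0109), while Notch1 and Dll4 overlapped between groups. Of 8 tested genes 4 were higher (Hes1, Hey1, Jag1 and Jag2), with a median of 0.17, which ranged from -0.18 to 0.30 over the fits without a library.

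Receptors and targets of TGF-beta and BMP differed little. Id1 and Id3, targets of BMP signals, had 1272 and 913 CPM in shNC and 1444 and 1227 CPM in shSELP, and 1171 and 1170.4 CPM in shNC and 1296 and 1237 CPM in shSELP. The receptor Bmpr2 had 388 and 484 CPM in shNC and 464 and 443 CPM in shSELP, and the co-receptor Eng had 613 and 558 CPM in shNC and 473 and 530.0 CPM in shSELP. Id1 and Bmpr2 overlapped between groups, and the others were set apart by little. Of 13 tested genes 11 were higher, with Eng and Smad1 lower, and the median was 0.28 (0.14 to 0.25) with no call. Id1 passed without shNC 1 (p = 0.0478).

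The basement membrane list, which shares Col4a1, Col4a2, Lamb1 and Nid2 with the sprouting genes, was lower in 12 of 16 genes. Sparc, a collagen-binding protein, had 2769 and 2163 CPM in shNC and 1387 and 1943 CPM in shSELP. Fn1, fibronectin, had 1032 and 1115 CPM in shNC and 780.4 and 836 CPM in shSELP. In both, shNC stood above shSELP. Sparcl1, a relative of Sparc, had 892 and 1219 CPM in shNC and 1364 and 1479 CPM in shSELP and went the other way, as Lamb2, Itga1 and Itga6 did. The median was -0.51 (-0.61 to -0.35), with no call. Mural cells carry such genes too, with Sparc at 2371 and Col4a1 at 1036 CPM in those of the table, and the median was -0.47 once cells with 2 or more UMIs of Rgs5 or Vtn were left out. Sparc and Sparcl1 passed without shNC 2 (p = 0.00116 and 0.00626), in opposite directions.

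Of the genes of antigen presentation, Cd74 alone passed. Cd74, the invariant chain of MHC class II, had 791 and 876 CPM in shNC and 169 and 243 CPM in shSELP. Both shNC libraries were more than 3 times as high as either shSELP library (edgeR log2 fold change -2.07, SE 0.22, adjusted p = 0.00241), and the call was lost without shSELP 1 (log2 fold change -1.78, adjusted p = 0.0506). H2-Aa, H2-Ab1 and H2-Eb1, chains of the class II molecules themselves, were lower in both shSELP libraries without a call, with log2 fold changes of -0.88, -1.09 and -0.70. H2-Ab1 and H2-Aa passed without shNC 2 (p = 0.0187 and 0.00295). The class II list summed to 1512 and 1354 CPM in shNC and 487 and 584 CPM in shSELP, all 4 tested genes were lower, and the median was -0.99 (-1.22 to -0.69). Class II RNA is abundant in the surrounding leukocytes, where Cd74 had 11469 and 9385 CPM in shNC and 9241 and 13795 CPM in shSELP, and the part of RNA from such cells in these values was not tested.

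MHC class I held no call. B2m, the light chain, had 3451 and 3799 CPM in shNC and 2035 and 3088 CPM in shSELP. H2-K1, a heavy chain, had 2815 and 3058 CPM in shNC and 1797 and 2758 CPM in shSELP, and H2-D1, another, had 2606 and 2384 CPM in shNC and 1769.5 and 2735 CPM in shSELP. In each of them shSELP 1 was the lowest library, and shSELP 2 was near the shNC libraries. H2-Q7, a non-classical heavy chain, had 884 and 564 CPM in shNC and 232 and 382 CPM in shSELP and an adjusted p of 0.0737, and it passed without shNC 1 (p = 0.000944), without shNC 2 (p = 1.65e-06) and without shSELP 2 (p = 0.00512). Of 13 tested genes 12 were lower, with H2-Q4 at 0.00, and the median was -0.39 (-0.63 to -0.05). Without shSELP 1 it was -0.05. B2m and H2-K1 passed without shNC 1 (p = 0.000873 and 0.0412).

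Of the interferon-induced genes, Ifitm1 passed. Ifitm1, an antiviral membrane protein, had 473 and 362 CPM in shNC and 45.5 and 30.6 CPM in shSELP, from 5 and 4 cells in shNC and 20 and 4 cells in shSELP. Both shNC libraries were more than 7 times as high as either shSELP library (edgeR log2 fold change -3.34, SE 0.26, adjusted p = 0.000533). Pooled over the libraries, mural cells held Ifitm1 at 1657 CPM and Ptprc-positive cells at 521 CPM. The call was lost with the deepest cell of each library left out (log2 fold change -2.44, adjusted p = 0.181). Its relative Ifitm3 had 5763 and 5123 CPM in shNC and 2827 and 3597 CPM in shSELP and an adjusted p of 0.0670, which passed without shNC 1 (p = 3.15e-06) and without shNC 2 (p = 2.29e-06). Ly6a, Ly6e and Ly6c1, surface proteins that interferon raises and vessels carry, had log2 fold changes of -0.21, 0.09 and 0.47, and Ly6c1 passed without shNC 2 (p = 1.58e-05). Of 28 tested genes 22 were lower, with a median of -0.40, which ranged from -0.68 to -0.03 over the fits without a library. The sum of the list, 20065 and 24248 CPM in shNC and 17043 and 19818 CPM in shSELP, was lower in both shSELP libraries, but nearly the same in shNC 1 and shSELP 2.

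Cxcl9 stood out among the chemokines. Cxcl9 (chr5:92321347-92328079, minus strand), a ligand of CXCR3 on T cells that interferon gamma induces, had 745 and 1869 CPM in shNC and 58.2 and 58.9 CPM in shSELP. Both shNC libraries were more than 12 times as high as either shSELP library (edgeR log2 fold change -4.51, SE 0.42, adjusted p = 0.000860), and it passed in all 16 alternatives. The UMIs came from 4 and 7 cells in shNC and 14 and 5 cells in shSELP. In Ptprc-positive cells, a main source of Cxcl9, the level was 1544 and 1501 CPM in shNC and 1113 and 1257 CPM in shSELP, and its log2 fold change there was -0.35 (adjusted p = 0.412). Mural cells, pooled over the libraries, held Cxcl9 at 2503 CPM. Its relative Cxcl10 had 271 and 2579.8 CPM in shNC and 501 and 181 CPM in shSELP, with 332 of the 421 UMIs of shNC 2 in 1 cell, and the groups overlapped. The log2 fold change of Cxcl10 was -2.06. It was -2.88 without shNC 1, turned to 0.42 without shNC 2, and was -3.00 without shSELP 1 and -1.50 without shSELP 2. Cxcl1, which attracts neutrophils, had 745 and 251 CPM in shNC and 395 and 504 CPM in shSELP, and its log2 fold change turned from -0.14 to 0.82 without shNC 1 and -0.72 without shNC 2 (p = 0.0173 and 0.0175). Of 8 tested chemokine genes 3 were higher (Cxcl12, Cxcl2 and Ackr3), with Cxcl9 and Ackr1 called and a median of -0.22. It was -0.72 without shNC 1 and turned to 0.57 without shNC 2, where 5 of the 8 were higher. The log2 fold change of Cxcl12 was 1.94 without shNC 2 and turned to -0.21 without shNC 1.

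The acute phase and cytokine response list, which holds Lrg1, had no other call. Nfkbia, the inhibitor of NF-kappaB, had 5057 and 3205 CPM in shNC and 4101 and 4539 CPM in shSELP, and Socs3, a feedback inhibitor of cytokine signals, had 620.5 and 379.9 CPM in shNC and 447 and 445 CPM in shSELP. The transcription factors Cebpd and Cebpb had 535 and 478 CPM in shNC and 434 and 561 CPM in shSELP, and 310.2 and 55.2 CPM in shNC and 183 and 87.2 CPM in shSELP. For all 4 genes the groups overlapped. Of 9 tested genes Nfkbia and Lcn2 were higher, with a median of -0.15 (-0.49 to 0.23), and it was 0.23 without shNC 1. Cebpb turned from -0.25 to 1.42 without shNC 1 and -1.05 without shNC 2 (p = 0.0111 and 0.0248), and Nfkbia passed without shNC 1 (p = 0.0222).

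Other large decreases lay outside the lists. Ubd (chr17:37193892-37196095, plus strand), the ubiquitin-like protein FAT10 that interferon gamma and TNF induce, had 589 and 1348 CPM in shNC and 26.8 and 23.6 CPM in shSELP. Both shNC libraries were more than 20 times as high as either shSELP library (edgeR log2 fold change -5.25, SE 0.42, adjusted p = 0.000533). In shNC 2, however, 126 of its 220 UMIs lay in the deepest cell of that library. The same cell held 103 UMIs of Ackr1, 38 of Lrg1 and 114 of Cxcl9, so these decreases are not separate results in that library. Igfbp3, a binding protein of insulin-like growth factors, had 2071 and 674 CPM in shNC and 87.0 and 30.6 CPM in shSELP, with shNC 1 the highest (log2 fold change -4.36, SE 0.55, adjusted p = 0.00537). Its log2 fold change was -3.30 without shNC 1 and -5.43 without shSELP 1. A single cell held 115 of the 267 UMIs of shNC 1, and another 54 of the 110 of shNC 2. Pdlim1, a cytoskeletal adaptor, had 271 and 208 CPM in shNC and 7.36 and 18.8 CPM in shSELP (log2 fold change -4.52, SE 0.38, adjusted p = 0.000629). AA467197, a small mitochondrial protein of the NMES1 family, had 217 and 294 CPM in shNC and 6.02 and 16.5 CPM in shSELP (log2 fold change -4.89, SE 0.40, adjusted p = 0.000533). In all 4 genes both shSELP libraries were far below both shNC libraries, and all 4 passed in each alternative in which they were tested. AA467197 is also made by leukocytes, where its level of 1041 and 1275 CPM in shNC and 1099 and 1405 CPM in shSELP was higher than in the vessels.

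The 28 called genes that were lower at a mean of at least 100 CPM also held 3 genes of high level, named here after their values were seen. Tmsb4x, the actin-binding thymosin beta 4, had 16707 and 15368 CPM in shNC and 8826 and 9561 CPM in shSELP, and Fth1, the ferritin heavy chain, had 8043 and 5864 CPM in shNC and 2933 and 3246 CPM in shSELP. Igfbp7, a matrix protein that glioma vessels carry, had 7205 and 3585 CPM in shNC and 1834 and 2094 CPM in shSELP. In all 3 the shSELP libraries were lower by log2 -0.82, -1.18 and -1.47 (edgeR adjusted p = 0.0209, 0.0151 and 0.0453). The lowest fold change of all was that of Fam167b, an uncharacterised gene with 16 and 17 UMIs in shNC and 1 and 0 UMIs in shSELP. With 1 UMI in shSELP its pooled ratio of shNC over shSELP was 217, with an exact counting interval of 36.3 to 8817, for counting error only.

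Of the 6 genes that rose, Hspa1b rose most. Hspa1b (chr17:34956436-34959238, minus strand), an inducible heat shock protein of the HSP70 family, had 7.76 and 36.8 CPM in shNC and 195 and 141 CPM in shSELP, from 1 and 4 cells in shNC and 123 and 19 cells in shSELP. Both shSELP libraries were above both shNC libraries (edgeR log2 fold change 2.83, SE 0.49, adjusted p = 0.0310). The log2 fold change was 2.24 without shNC 1 and 4.49 without shNC 2. It was detected in 5.56 and 15.4% in shNC and 39.4 and 30.2% in shSELP, against 3.93 to 10.2% of Ptprc-positive cells. In cells thinned to 2000 UMIs, Hspa1b was detected in 0 and 10% in shNC and 27.6 and 7.02% in shSELP. At that equal depth the groups overlapped, with shSELP 2 below shNC 2. The call was lost in the fit without cells of high Rgs5 or Vtn and in that without the deepest cells, at log2 fold changes of 2.78 and 2.65 (adjusted p = 0.0706 and 0.0829). Of the 14 tested heat shock and immediate early genes 13 were higher, all but Atf3, with a median of 0.54 (0.50 to 0.80).

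The immediate early genes themselves differed by less. Fos had 4995 and 6348 CPM in shNC and 6746 and 7007 CPM in shSELP, Jun had 4204 and 5301 CPM in shNC and 6383 and 7478 CPM in shSELP, and Junb had 3777 and 3186 CPM in shNC and 4496 and 5319 CPM in shSELP. Fosb, a relative of Fos, had 2187 and 2371 CPM in shNC and 3450.1 and 3291 CPM in shSELP. In all 4 the shSELP libraries were above the shNC libraries, with log2 fold changes of 0.26 to 0.55. Without shNC 2 all 4 passed (p = 0.000689 for Fos, 1.66e-06 for Jun, 0.0225 for Junb and 0.000602 for Fosb), and without shNC 1 all but Fos passed (p = 0.0137 for Jun, 5.72e-05 for Junb and 0.00973 for Fosb). The list summed to 24587 and 29272 CPM in shNC and 36289.6 and 37053 CPM in shSELP, so the order of the libraries was that of the barrier transport list.

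The 3 genes that rose at a mean of at least 100 CPM lost their calls in part of the alternatives. Tsc22d3, a leucine zipper protein that glucocorticoids induce, had 186 and 257 CPM in shNC and 576 and 709 CPM in shSELP and rose by log2 1.49, SE 0.24, adjusted p = 0.0194. The call was lost in 3 of 16 alternatives, without shSELP 1 (log2 1.67, adjusted p = 0.0518), thinned to 2000 UMIs (1.14, adjusted p = 0.105) and without the deepest cells (1.45, adjusted p = 0.112). Slc38a2, an amino acid carrier, had 271 and 288 CPM in shNC and 572 and 624 CPM in shSELP (log2 fold change 1.07, SE 0.20, adjusted p = 0.0440), and the call was lost in 9 of 16 alternatives, among them those without shSELP 1 (p = 0.274) and without shSELP 2 (p = 0.137). Pllp, plasmolipin, a membrane protein of myelin, had 46.5 and 79.7 CPM in shNC and 188 and 214 CPM in shSELP (log2 fold change 1.60, SE 0.31, adjusted p = 0.0471), and the call was lost in 8 of 16 alternatives, among them that without shSELP 1 (p = 0.0870). In each of these genes both shSELP libraries were above both shNC libraries. The remaining genes that rose were Ndnf, a secreted neurotrophic factor, and Rlim, a ubiquitin ligase, with log2 fold changes of 1.98 and 1.70 (edgeR adjusted p = 0.0310 and 0.0453).

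Genes that flowing blood induces were higher without a call. Klf2, the main flow-responsive transcription factor, had 3506 and 3511 CPM in shNC and 4744 and 5052 CPM in shSELP, and its relative Klf4 had 822 and 1360.4 CPM in shNC and 2025 and 1847 CPM in shSELP. In both, shSELP was above shNC, and both passed without shNC 1 (p = 0.00454 and 0.0403) and without shNC 2 (p = 0.00203 and 4.55e-07). Plk2, a kinase, had 605 and 631 CPM in shNC and 630.4 and 730.2 CPM in shSELP, and Nostrin, which moves nitric oxide synthase, had 178 and 466 CPM in shNC and 347 and 389 CPM in shSELP, with the groups overlapping. The log2 fold change of Nostrin was 1.06 without shNC 2 and turned to -0.35 without shNC 1. All 7 tested genes were higher, with a median of 0.46 (0.33 to 0.81).

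Genes of coagulation were lower in 7 of 9. Anxa2, a receptor for plasminogen and its activator, had 465 and 343 CPM in shNC and 197 and 193 CPM in shSELP, with an adjusted p of 0.0552 that passed without shNC 1 (p = 0.0181) and without shNC 2 (p = 0.000224). Plat, the tissue plasminogen activator, had 442 and 558 CPM in shNC and 829 and 994 CPM in shSELP and went the other way, passing in the same fits (p = 0.0134 and 0.000293). Thbd, thrombomodulin, had 124 and 276 CPM in shNC and 226 and 196 CPM in shSELP, with the groups overlapping. The median was -0.69 (-0.77 to -0.56).

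Hypoxia and glycolysis genes gave a mixed picture. Ndrg1, a hypoxia-induced gene, had 334 and 490.2 CPM in shNC and 599.7 and 763 CPM in shSELP, and passed without shNC 2 (adjusted p = 0.00109). The glycolytic enzymes Ldha and Aldoa had 481 and 349 CPM in shNC and 436 and 363 CPM in shSELP, and 481 and 343 CPM in shNC and 297 and 285 CPM in shSELP. Ndrg1 was higher in shSELP, Aldoa lower (p = 0.0468 without shNC 2), and Ldha overlapped. Of 10 tested genes Slc2a1, Ndrg1 and Ankrd37 were higher, with a median of -0.22 (-0.34 to -0.01) and no call. Without either shNC library 5 of the 10 were higher.

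Cell cycle genes were too low to compare. Of 20 genes only Stmn1, which destabilises microtubules, passed the filter on low counts, with 202 and 184 CPM in shNC and 254 and 259 CPM in shSELP. The sum of the list was 419 and 447 CPM in shNC and 430.3 and 466 CPM in shSELP, so the libraries were alike. Pcna, the clamp of DNA replication, had 0 and 5 UMIs in shNC and 66 and 13 UMIs in shSELP, and Mcm3 and Mcm6 of the replication helicase had 2 and 7 UMIs in shNC and 25 and 9 UMIs in shSELP, and 3 and 5 UMIs in shNC and 29 and 6 UMIs in shSELP.

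Over the lists, 11 of the 50 called genes lay among the 307 genes of the 25 process lists. Of those genes 233 were tested, so 4.72% were called, beside 1.04% of all genes tested, and the lists were chosen with earlier results of these data known. The endothelial identity list had 9 of 16 genes outside the gate higher and a median of 0.17. That was the smallest median in size among the lists with 10 or more tested genes outside the gate.

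Some of the called genes that were lower came from few cells. All 5 cells with 2 or more UMIs of Plvap, 4 in shNC 1 and 1 in shNC 2, held 0 UMIs of Slco1a4 and at least 1 UMI of Trp53i11. Cells with 2 or more UMIs of Trp53i11 numbered 6 and 2 in shNC and 0 and 1 in shSELP. Cells with 2 or more UMIs of Cxcl9 numbered 4 and 5 in shNC and 6 and 2 in shSELP, and 13 of these 17 held 0 UMIs of Slco1a4. For Ubd the numbers were 4 and 5 against 5 and 1, and 12 of these 15 cells lacked Slco1a4. Cells that express these genes were thus found in both groups for Cxcl9 and Ubd, at very different shares of the gated cells. Apln at 2 or more UMIs was found in 2, 1, 2 and 1 cells, and Igfbp3 in 6, 3, 23 and 2 cells, in the order shNC 1, shNC 2, shSELP 1 and shSELP 2.

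Depth could hide Slco1a4, so cells with at least 2000 UMIs were read separately. They numbered 16 and 20 in shNC and 246 and 57 in shSELP, and 5, 3, 12 and 0 of them held 0 UMIs of Slco1a4. Plvap was detected in 4, 1 and 0 of these cells in shNC 1, shNC 2 and shSELP 1, Ubd in 4, 3 and 0, and Cxcl9 in 4, 3 and 1. In the same deep cells, the tip cell list had a median of 53.7 and 27.5 UMIs per 10000 in shNC and 22.9 and 23.9 in shSELP. Its highest cells reached 196, 204, 169 and 70.2, so the highest cell of shSELP 1 came near those of the shNC libraries. Barrier transport had a median of 113 and 142 in shNC and 168 and 173 in shSELP. Capillary genes had a median of 13 and 48.6 against 69.5 and 69.7, and venous genes of 8.23 and 5.15 against 3.66 and 4.11. The typical cell of shNC 1 was thus the lowest for barrier and capillary genes and the highest for tip cell and venous genes.

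**Figure D4:**
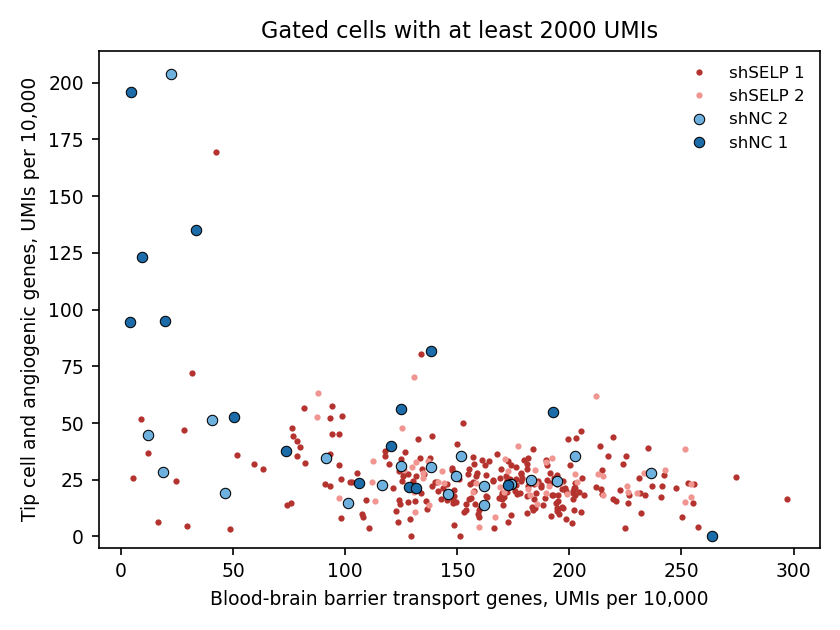
Tip cell list against barrier transport list in gated cells of at least 2000 UMIs, in UMIs per 10000, 1 point per cell, coloured by library. Median cells of shNC 1 and shNC 2 sit at 113 and 142 for barrier transport, and those of shSELP 1 and shSELP 2 at 168 and 173.

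Whether these differences were shared by leukocytes was asked in a joint fit with the Ptprc-positive cells of the same libraries, 1612 and 1629 in shNC and 1378 and 1644 in shSELP. The fold change of shSELP over shNC differed between the cell types for 159 of 12665 genes (1.26%), with 140 lower and 19 higher in endothelial cells. Of the 50 genes called in endothelial cells, 41 were among them. The joint fit used the same endothelial sums that gave the 50, so this overlap is not separate support. In the Ptprc-positive cells alone, edgeR called 0 of 12704 genes (0%), with 1463 at an unadjusted p under 0.05. The count of 159 was 93 without shNC 1, 236 without shNC 2, 56 without shSELP 1 and 135 without shSELP 2.

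The promoters of the 44 genes that fell were searched for 2 motifs. Windows of 300 bases around the gene start were taken from RefSeq (GRCm38.p6), which held 36 of the 44 genes. The interferon-stimulated element, read as GAAA, any 2 bases and GAAA, was found on either strand in 0 of 36, beside 3.99% of 27025 RefSeq genes with a promoter, whether or not they were measured here. The NF-kappaB pattern, read as GGG, any 4 bases and TCC, was found in 11 (30.6%), beside 21.3%. A match is a description of letters and not of a bound site. The promoters of Ubd and Igfbp3, which were among the largest decreases, are shown with the NF-kappaB pattern in capitals. They lie at chr17:37193642-37193941 (plus strand) and chr11:7213874-7214173 (minus strand).
Ubd: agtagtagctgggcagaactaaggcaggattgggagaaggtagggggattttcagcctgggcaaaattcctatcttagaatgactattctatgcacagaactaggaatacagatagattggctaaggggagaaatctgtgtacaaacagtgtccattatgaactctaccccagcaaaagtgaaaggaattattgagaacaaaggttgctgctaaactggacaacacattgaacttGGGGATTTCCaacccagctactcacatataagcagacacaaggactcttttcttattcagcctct
Igfbp3: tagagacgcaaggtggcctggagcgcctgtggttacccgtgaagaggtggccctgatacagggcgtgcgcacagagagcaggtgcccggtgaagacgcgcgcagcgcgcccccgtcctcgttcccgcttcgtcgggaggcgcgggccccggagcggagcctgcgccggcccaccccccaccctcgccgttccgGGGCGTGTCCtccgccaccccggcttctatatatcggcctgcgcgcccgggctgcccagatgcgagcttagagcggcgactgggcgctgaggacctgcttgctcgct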

How the data were processed

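Droplet single-cell RNA was measured in 2 shNC and 2 shSELP libraries of the tumor mix. The authors aligned reads with Cell Ranger 1.3 to mm10, according to the submitters' processing notes, and deposited raw UMI counts per gene and cell. Cells were gated as the report states, and their UMIs were summed per library. For the groups, edgeR 4.0.16 in R 4.3.3 took these sums through its expression filter, TMM scaling and quasi-likelihood test with Benjamini-Hochberg adjustment. Shares carry exact Clopper-Pearson intervals. The joint fit with Ptprc-positive cells used the library as a block.

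The members and lists were chosen with earlier results of these data known. The text names the gate and marker genes, Selp, Sele, Selplg and Plvap, the called genes and up to 4 most abundant genes of each process list, up to 10 largest called changes each way at a mean of 100 CPM or more with separated libraries, the 20 highest ratios to other Ptprc-negative cells, and the most abundant gene of each other cell type. Some results on single genes and motifs are left out. Alternatives were DESeq2 1.42.0, no filter on low counts, no TMM, a replicate block, a limit of 10% mitochondrial UMIs, Cldn5 at 1 or 3 UMIs, Ptprc at 1 UMI, cells thinned to 2000 UMIs, Scrublet calls (scanpy 1.11.5) left out, cells with 2 or more UMIs of Rgs5 or Vtn left out and each library left out. The fits without high Ttr or hemoglobin, without the deepest cells, and the joint fits without a library were chosen after seeing the data.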

Additional observations from a re-analysis of the deposited data

Results flagged for a closer look

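The fold change of shSELP over shNC differed between endothelial and Ptprc-positive cells for 159 genes. The joint edgeR fit tests this difference itself, and its cause was not tested. Values are the difference between the log2 fold changes of the 2 cell types, endothelial less leukocyte. Among the named genes called in endothelial cells it was largest for Ackr1 at -7.82, where the level in Ptprc-positive cells was only 0 and 0.452 CPM in shNC and 4.17 and 5.90 CPM in shSELP. The barrier gene Slco1a4, which leukocytes should lack, had 0.355 and 1.36 CPM in shNC and 8.57 and 1.42 CPM in shSELP in those cells, and the part of free vessel RNA in such small levels was not tested. Lrg1 followed at -5.81, with 1.48 and 0.339 CPM in shNC and 3.78 and 5.90 CPM in shSELP in Ptprc-positive cells.

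Of the tip cell and fenestra genes called in endothelial cells, Apln did not pass the joint test (-2.80, adjusted p = 0.680). Pgf had a difference of -5.64 and Trp53i11 of -5.21. Plvap had -5.40, with 3 UMIs in the shSELP endothelial cells, and it did not pass without shNC 1 (-2.36, adjusted p = 0.946) or without shSELP 1 (-2.69, adjusted p = 1). Mcam had -2.25, which did not pass without shNC 1, shSELP 1 or shSELP 2 (adjusted p = 0.575, 0.113 and 0.301).

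Other called genes differed too, from various lists or from none. Ubd had a difference of -5.14, AA467197 of -4.81, Cxcl9 of -3.92, Ifitm1 of -3.72 and Cd74 of -2.10. In Ptprc-positive cells Ifitm1 had 398 and 480.0 CPM in shNC and 565 and 619.8 CPM in shSELP, so both shSELP libraries were the higher there. The cytoskeletal gene Pdlim1 had a difference of -4.25. On the other side stood Hspa1b at 2.78, which did not pass without shNC 1 (adjusted p = 0.575), and Tsc22d3 at 1.70. The called genes Igfbp3, Pllp and Slc38a2 did not pass the joint test (adjusted p = 0.266, 0.0978 and 0.112). Apart from the fits named here, the genes that passed did so in each joint fit without a library.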

How the results depend on the processing

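The 18 called named genes gave 275 values under the alternatives. Of these 246 kept direction and call, 29 kept the direction but missed the threshold, and 0 turned. AA467197, Apln, Cxcl9, Igfbp3, Lrg1, Pdlim1, Pgf, Trp53i11 and Ubd passed wherever they were tested. The 90 named genes that were not called gave 1416 values, of which 121 passed in the same direction and 2 passed in the opposite one. Those 2 were both without shNC 1, and without 1 library Cxcl1 ranged from -0.72 to 0.82 and Cebpb from -1.05 to 1.42 (log2). For the genes that were not called, a sign that differed from the main fit was recorded for 69 values. List medians kept their sign in 369 of 380 values.

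The count of 50 called genes was 298 without a filter on low counts, where 14351 genes were tested and the median log2 fold change of all genes was 0.31. It was 10 with cells thinned to 2000 UMIs, where 1444 genes were tested. It was 18 without the deepest cell of each library, which were 12.7% and 14.7% of the shNC UMIs. Without 1 library it ranged from 24 to 460, and a group left with a lone library is assumed there to vary like the other. The cause of that range was not tested. The count stayed between 35 and 75 under DESeq2, no TMM, the replicate block, and the limits on Cldn5, mitochondrial UMIs, doublets, mural and Ttr or hemoglobin cells. The limit of 10% mitochondrial UMIs removed no gated cell, so that fit was the main fit and shows no stability. It is still counted among the alternatives. With library number as a replicate block it was 61, although the pairs share a number only, with a correlation of 0.0983 between same-numbered deviations over 3380 genes. The count of 159 genes in the joint fit ranged from 56 to 236 without 1 library, and was 174 without the filter and 191 without TMM.

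The ratio of endothelial shares ranged from 2.87 to 14.1 without 1 library, and from 8.04 to 9.07 under the other alternatives. The shNC sums of 128930 and 163191 UMIs limit what can be seen at low levels. A gene at 0 may lie anywhere under 23.3 CPM in shNC 1.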
